A study of Mus musculus with 16 samples.

Results

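The comparison of Dp16 with wild-type (WT) hippocampus describes the duplication in animals without amyloid transgenes, and asks chiefly which genes outside the triplicated segment of chromosome 16 differed. It rests on 8 of the 16 libraries of the series, 4 from Dp16 mice (libraries 3, 5, 12 and 14) and 4 from WT mice (libraries 2, 4, 7 and 16), chosen by the genotype label alone. Polyadenylated RNA was sequenced from whole hippocampus at 9 months of age, and each group held 2 females and 2 males. Dp16 mice carry a tandem copy of the stretch of chromosome 16 from Lipi to Zbtb21, whose genes they hold in 3 copies in every cell, and their label names no other allele. WT mice are labelled C57BL/6J. The strain background of the Dp16 mice is not given in the labels, nor is it said whether WT animals were littermates, so the duplication and any other difference between the lines cannot be told apart. The 5xFAD-Dp16 and 5xFAD groups, also 4 libraries each at 9 months, were used as a second pair that differs by the duplication. That pair also differed in thalamus content, as described below. Both carry the 5xFAD amyloid transgenes, which hold familial Alzheimer mutations and are driven by the neuronal Thy1 promoter. Nothing in the labels says that a library pooled animals. The p-values measure the spread between libraries, taken from a common fit over all 16 libraries of the series.

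The mouse segment corresponds to most of the long arm of human chromosome 21, the chromosome present in an extra copy in Down syndrome. A gene in 3 copies is transcribed at about 1.5 times the usual level where nothing compensates. Genes elsewhere in the genome keep their normal copy number, and the proteins that the segment encodes include receptors, kinases and transcription factors whose known targets lie among them. The hippocampus, with its dentate granule cells and its CA1 and CA3 pyramidal cells, serves memory and is among the regions studied most in Down syndrome models.

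Total gene counts ran from 19823038 to 25308693 in the Dp16 libraries and from 16922937 to 24011935 in the WT libraries. Markers of the hippocampus were present, since all 12 dentate granule and all 13 CA1 and CA3 pyramidal markers tested were at 1 CPM (counts scaled to the size of the library) or more in each of the 8 libraries. Some libraries stood apart in neighbouring tissue. The summed level of 10 thalamus markers was 815 CPM in Dp16 14 and 134 to 150 CPM in the other 3 Dp16 libraries, and 569 CPM in WT 4 and 150 to 160 CPM in the other 3 WT libraries. The summed level of 15 choroid plexus markers, the secretory epithelium of the ventricle, was 94.0, 981, 58.0 and 96.0 CPM in Dp16 libraries 3, 5, 12 and 14, and 474, 2999, 8399 and 3184 CPM in WT libraries 2, 4, 7 and 16. None of the 15 was at 0 in any library. In bulk tissue fewer cells of a type and less RNA per cell cannot be told apart.

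Outside the segment 3 genes were called in Dp16 against WT, at an adjusted p under 0.05 from edgeR's quasi-likelihood test over 17132 genes. The agouti gene a and the sodium-iodide symporter Slc5a5 rose, and the cystathionine beta-synthase gene Cbs fell. They are 0.0176% of the 17027 genes tested outside the segment (0.0117% higher and 0.00587% lower). In the segment 36 of 105 genes tested were called (34.3%), and over all genes 39 (0.228%). The median log2 fold change outside the segment was 0.00035, with quartiles of -0.12 and 0.10. An unadjusted p under 0.05 was reached by 909 genes outside the segment, 5.34% of those tested, and an unadjusted p under 0.001 by 14. The 4 Dp16 libraries lay wholly above the 4 WT libraries for 353 genes (2.07%) and wholly below for 354 (2.08%), so that higher and lower genes were about equally many. The count of 3 was 6 without WT 2, 5 without Dp16 14 and 25 without the 6 libraries of the series with a high thalamus score (Dp16 14 and WT 4 among them), and the same 3 genes were included each time.

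The precision sets what size of difference could have been seen. The median standard error of a log2 fold change outside the segment was 0.15, and 0.11 among well expressed genes, those averaging at least 3 log2 CPM. The 95% interval lay within a 1.5-fold difference either way for 10589 of the 17027 genes (62.2%), and for 9501 of the 10571 well expressed ones (89.9%). For most well expressed genes outside the segment a difference as large as that of a triplicated gene was thus outside the interval, while for many genes of lower level the interval was wider.

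**Figure D1:**
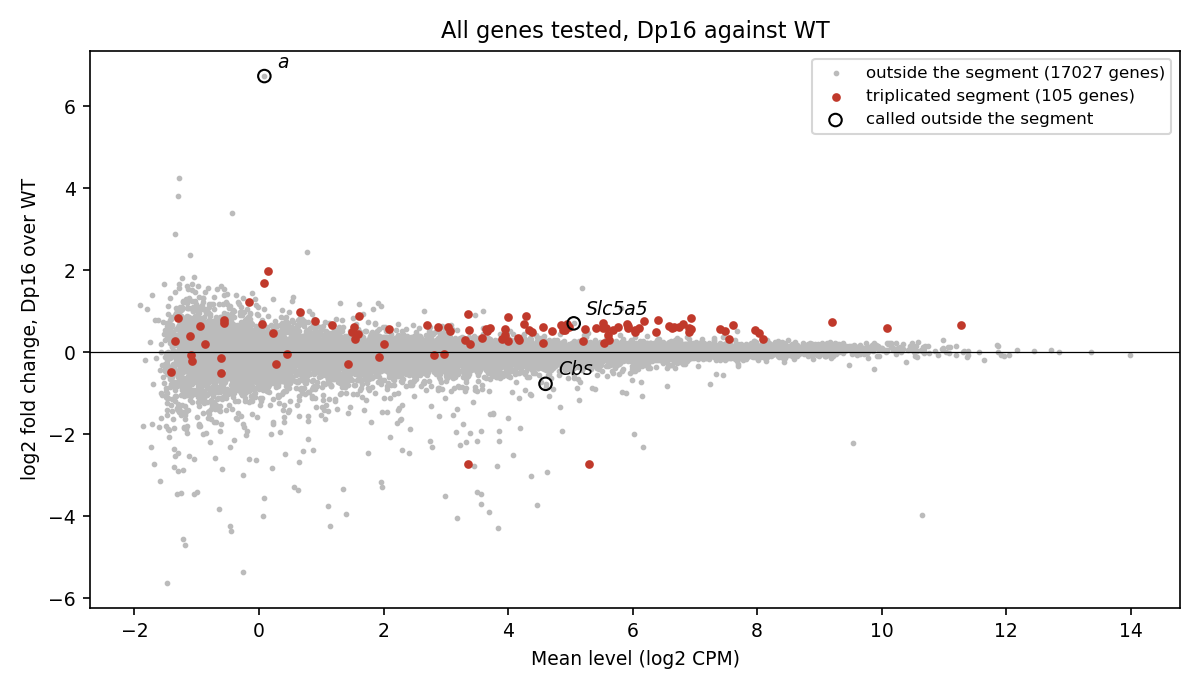
Each point is a gene tested, with its mean level (log2 CPM) across and its log2 fold change, Dp16 over WT, up the page. Genes of the triplicated segment (red) lie as a band around their median of 0.56, genes outside it (grey) around 0, and the 3 called outside the segment are circled.

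The gene a encodes the agouti signalling protein, a secreted antagonist of melanocortin receptors that switches hair pigment in skin. As background, C57BL/6J mice carry the recessive nonagouti allele of this gene. It lies at chromosome 2, 154791402 to 155051012 (GRCm38; ENSMUSG00000027596.10). It had 65, 26, 33 and 39 counts in Dp16 libraries 3, 5, 12 and 14, against 0, 1, 0 and 0 counts in WT libraries 2, 4, 7 and 16. Every Dp16 library held at least 26 counts and no WT library more than 1, so the groups lay far apart although the level stayed low, at 1.80 ± 0.594 CPM in Dp16 and 0.0120 ± 0.0240 CPM in WT (SD, n = 4 each). The ratio of the summed counts, 163 in Dp16 and 1 in WT, was 147 after scaling for depth, with a 95% interval of 26.0 to 5834 that covers counting error only (adjusted p = 0.000115, edgeR). The same held in the second pair, with 29, 48, 68 and 34 counts in 5xFAD-Dp16 libraries 1, 8, 9 and 11, and 0, 1, 0 and 2 counts in 5xFAD libraries 6, 10, 13 and 15 (ratio 62.9, counting interval 21.2 to 308, adjusted p = 5.99e-05). The annotated span of a overlaps Raly, an RNA-binding protein gene on the same strand, and Eif2s2, a translation initiation factor gene on the other. These stood at -0.08 and -0.06 (log2 fold change), neither of them called. The strand setting of the authors' counting is not given in the sources used here, so reads within the overlaps cannot be assigned to a with certainty.

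Slc5a5 encodes the sodium-iodide symporter, known from the thyroid, where it takes up iodide for hormone synthesis. It lies at chromosome 8, 70882889 to 70892757 (ENSMUSG00000000792.2). Its level was 46.6, 41.2, 48.1 and 37.2 CPM in Dp16 libraries 3, 5, 12 and 14, against 27.0, 25.6, 27.7 and 25.7 CPM in WT libraries 2, 4, 7 and 16. The lowest Dp16 library stood well above the highest WT library, and the WT libraries were close to one another. The fold was 1.63 (log2 fold change 0.71 ± 0.085 SE, adjusted p = 0.000856), a size like that of a triplicated gene on a chromosome that is not duplicated. In the amyloid background it rose likewise, by 0.60 ± 0.085 (log2, adjusted p = 0.00202).

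Cbs encodes cystathionine beta-synthase, the enzyme that condenses homocysteine with serine and so opens the path from methionine to cysteine. Its human counterpart lies on chromosome 21, while the mouse gene lies on chromosome 17, 31608894 to 31637238 (ENSMUSG00000024039.15), outside the duplication. Its level was 17.1, 17.2, 16.5 and 21.3 CPM in Dp16 libraries 3, 5, 12 and 14, against 32.9, 32.6, 29.4 and 27.7 CPM in WT libraries 2, 4, 7 and 16. Dp16 14 was the highest of its group, yet below every WT library. The log2 fold change was -0.77 ± 0.096 SE (adjusted p = 0.000985), or 0.587 times the WT level, and -0.66 ± 0.095 (adjusted p = 0.00236) in 5xFAD-Dp16 against 5xFAD.

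**Figure D2:**
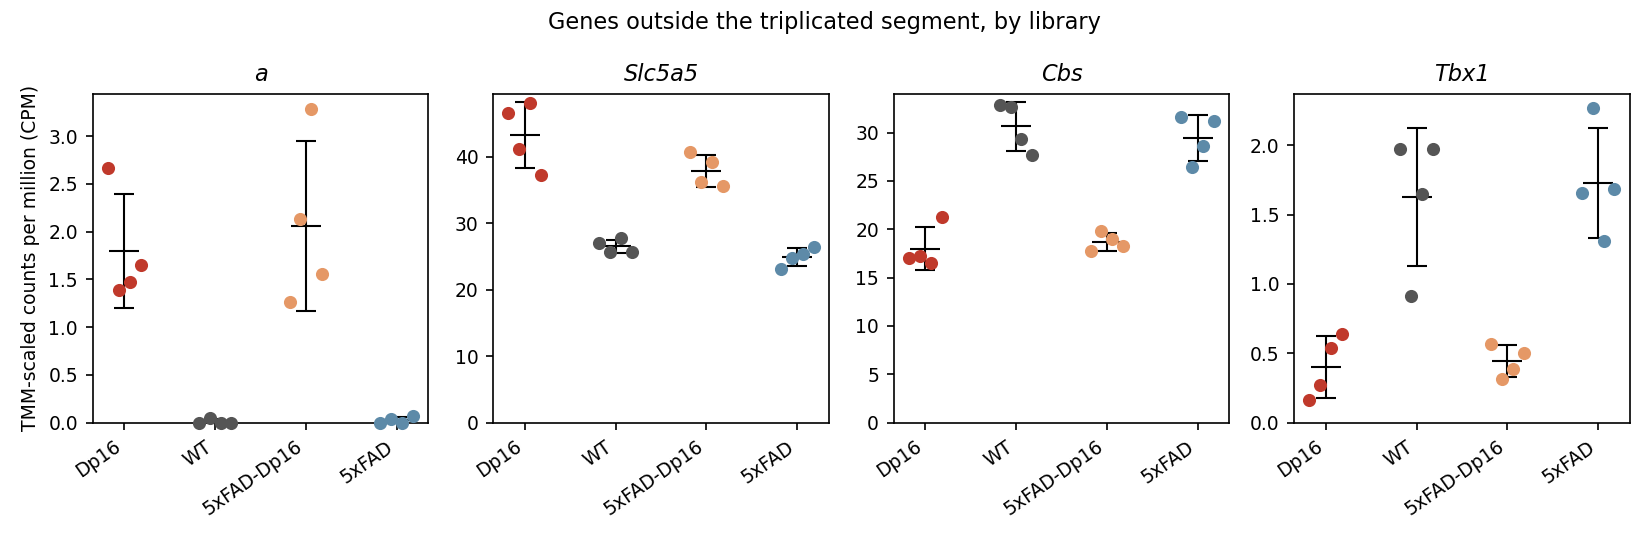
Levels of a, Slc5a5, Cbs and Tbx1 (TMM-scaled CPM, linear axes from 0) in the 4 libraries of each genotype, with the mean and SD. In each gene the 4 Dp16 libraries are apart from the 4 WT libraries, and the 5xFAD-Dp16 libraries from the 5xFAD libraries, with a and Slc5a5 higher and Cbs and Tbx1 lower.

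The promoters of a, Slc5a5 and Cbs are shown because the comparison outside the segment turns on these genes, and because the segment holds genes of DNA-binding factors whose motifs can be looked for in them. Each is the 300 bases around the RefSeq start site in GRCm38.p6 (250 before, 50 after), read along the gene's strand, at chr2:155013320-155013619 (plus strand) for a, chr8:70892708-70893007 (minus strand) for Slc5a5 and chr17:31637156-31637455 (minus strand) for Cbs. The windows of Slc5a5 and Cbs hold the annotated start of the gene. That of a lies well inside the annotated span, which starts upstream at 154791402, so it does not show the start of that span. From which start the reads of a came was not tested. Capitals mark a match to a motif.
a: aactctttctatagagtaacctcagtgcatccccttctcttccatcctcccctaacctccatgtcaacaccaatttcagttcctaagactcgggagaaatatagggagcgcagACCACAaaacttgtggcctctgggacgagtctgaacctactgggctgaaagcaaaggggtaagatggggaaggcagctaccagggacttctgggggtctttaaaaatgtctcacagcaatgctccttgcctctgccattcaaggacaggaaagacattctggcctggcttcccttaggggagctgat
Slc5a5: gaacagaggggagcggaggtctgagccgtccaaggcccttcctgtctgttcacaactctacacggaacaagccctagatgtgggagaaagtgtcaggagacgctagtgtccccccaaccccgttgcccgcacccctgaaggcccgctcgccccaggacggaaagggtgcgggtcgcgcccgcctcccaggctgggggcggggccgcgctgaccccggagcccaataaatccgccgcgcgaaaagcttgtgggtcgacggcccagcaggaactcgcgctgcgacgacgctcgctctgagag
Cbs: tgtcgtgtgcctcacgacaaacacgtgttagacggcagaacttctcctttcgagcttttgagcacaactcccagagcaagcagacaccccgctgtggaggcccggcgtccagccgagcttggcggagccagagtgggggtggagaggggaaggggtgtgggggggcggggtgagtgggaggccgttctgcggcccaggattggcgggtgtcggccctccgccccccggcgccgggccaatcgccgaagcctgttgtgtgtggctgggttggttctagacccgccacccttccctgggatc
The a promoter held 3 CpG sites at 50.3% GC, while those of Slc5a5 and Cbs held 29 and 22 CpG sites at 67.0% and 66.7% GC. Searched on both strands were CCGGAAG, bound by ETS factors such as the triplicated Gabpa and Ets2, TGTGGT of RUNX factors (Runx1), the E-box CAGCTG (Olig1 and Olig2 belong to a family that binds E-boxes), TGAGTCA of AP-1 and Bach factors (Bach1), and the interferon-stimulated response element. The 1 match was a TGTGGT element in the a promoter, overlapping no other motif. Among 32851 RefSeq promoters of the same length the shares holding these motifs were 8.86%, 16.8%, 16.3%, 5.20% and 3.44% in that order. A match is a description of these letters, and a missing match says only that they are not in this window.

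Around the 3 genes no neighbour was called. Within 1 Mb of a, 27 other genes were tested, with a median log2 fold change of 0.06, 0 called and 0 with libraries that did not overlap. Of these, 2 reached an unadjusted p under 0.05, Acss2, an acetyl-CoA synthetase gene, and Myh7b, a myosin gene. Around Slc5a5, 77 genes had a median of 0.02, with 0 called, 7 not overlapping (against 4.15% of all genes outside the segment) and 3 at an unadjusted p under 0.05 (against 5.34%). The 7 went both ways. Mau2 and Myo9b were lower, at -0.13 ± 0.078 and -0.20 ± 0.10 (log2 fold change), and the others higher. The higher ones included Hapln4, a link protein of perineuronal nets, at 0.22 ± 0.076 and Ddx49, an RNA helicase gene, at 0.18 ± 0.062. In 5xFAD-Dp16 against 5xFAD Hapln4 stood at 0.19 and Ddx49 at -0.24. Around Cbs, 28 genes had a median of -0.05, with 0 called, 2 not overlapping and 1 at an unadjusted p under 0.05. The last was Rrp1b, a nucleolar protein gene whose human counterpart is also on chromosome 21, at 5.79, 6.57, 5.56 and 6.65 CPM in Dp16 libraries and 8.20, 8.07, 7.67 and 7.35 CPM in WT libraries (-0.35 ± 0.16).

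Tbx1, a T-box transcription factor of pharyngeal and heart development, came nearest to a call among the other genes (adjusted p = 0.0508). It lies on chromosome 16, but 56.9 Mb before the segment. Its level was 0.164, 0.267, 0.534 and 0.635 CPM in Dp16 libraries 3, 5, 12 and 14, and 1.97, 0.912, 1.65 and 1.98 CPM in WT libraries 2, 4, 7 and 16. The groups did not overlap, with all values low. The log2 fold change was -1.995 ± 0.39 SE. It fell in 5xFAD-Dp16 against 5xFAD (-1.97 ± 0.39, adjusted p = 0.0452), and it was called in Dp16 against WT in 10 of the 19 other ways of processing the data (adjusted p 0.000132 to 0.264), among them without WT 4 (0.0298) and without Dp16 14 (0.0281), the libraries rich in thalamus markers. It was not called when any of the other 6 libraries was left out (0.114 to 0.264), nor with the 8 libraries alone (0.189).

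Uncalled genes with the smallest p were taken next, 10 higher and 10 lower, as a description. Lcat, which esterifies cholesterol on lipoproteins, led those with higher values, at 45.9, 47.3, 51.8 and 44.4 CPM in Dp16 libraries and 29.0, 31.9, 33.1 and 28.2 CPM in WT libraries. The groups lay apart, and the log2 fold change of 0.63 ± 0.13 did not pass (adjusted p = 0.0877). It passed in 4 of the 19 alternatives, namely DESeq2 (0.00379), the 8 libraries alone (0.00391), the fit without the libraries of high thalamus score (0.00538) and no filter on low counts (3.65e-06). C4b, a complement component made by astrocytes, was at 85.2, 109, 132 and 66.8 CPM in Dp16 libraries and 68.4, 60.0, 71.2 and 68.0 CPM in WT libraries, and Dp16 14 lay within the WT range (0.53 ± 0.14, adjusted p = 0.371). Trim3, a neuronal ubiquitin ligase gene, differed by only 0.24 ± 0.058 but with tight libraries, 120 to 124 CPM in Dp16 and 97.4 to 105 CPM in WT. The other genes with higher values were the deubiquitinase gene Usp35 (0.35), the sorting nexin gene Snx32 (0.31), Nckipsd, an adaptor of the actin cytoskeleton (0.32), Tigar, a fructose bisphosphatase of glycolytic control (0.26), the ATP-gated channel gene P2rx5 (0.80), Traf3ip3 (1.30 ± 0.34) and Ucma (1.21 ± 0.32). Traf3ip3 was low, at 0.481 to 0.657 CPM in Dp16 and 0.144 to 0.377 CPM in WT (adjusted p = 0.321, edgeR). Its mean level over the series was raised by the amyloid groups, at 1.82 CPM in 5xFAD and 1.65 CPM in 5xFAD-Dp16. Ucma overlapped between the groups, with Dp16 14 at 1.57 CPM and WT 2 at 1.97 CPM (adjusted p = 0.381, edgeR).

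Of the genes with lower values, Gabpb2 encodes a partner subunit of the ETS factor Gabpa, which is itself in the segment. Gabpb2 was at 11.9, 10.6, 10.1 and 12.2 CPM in Dp16 libraries and 15.4, 17.4, 16.2 and 15.5 CPM in WT libraries, with no overlap (log2 fold change -0.52 ± 0.12, adjusted p = 0.143). The other partner, Gabpb1, was at 12.9, 12.7, 11.4 and 10.96 CPM in Dp16 libraries and 15.8, 13.3, 13.4 and 15.7 CPM in WT libraries (-0.28 ± 0.10, adjusted p = 0.725). Gabpa rose, to 34.8, 35.97, 39.3 and 30.9 CPM in Dp16 libraries, against 23.9, 23.6, 27.97 and 21.7 CPM in WT libraries (0.54 ± 0.088, adjusted p = 0.00983). Gabpb2 did not carry over to the amyloid background, where it stood at 0.01 ± 0.12. Ptbp1, a splicing repressor of non-neuronal cells, was at 27.5, 27.1, 28.3 and 24.9 CPM in Dp16 libraries and 34.3, 33.1, 43.1 and 34.5 CPM in WT libraries, again with no overlap (-0.42 ± 0.10). Mxd4, a partner of Max, stood at -0.38 ± 0.095. Uvssa, a transcription-coupled repair gene, stood at -0.73 ± 0.17 and the coiled-coil gene Ccdc157 at -0.34 ± 0.085.

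Several of the genes with lower values were highest in WT 7, the library with the highest choroid plexus sum. Ptbp1, Mxd4 and Ccdc157 were among them, and Ptbp1 stood at -0.26 with the thalamus and choroid plexus scores as terms of the fit. Pon3, a paraoxonase gene, was at 1.23, 3.47, 1.60 and 1.74 CPM in Dp16 libraries 3, 5, 12 and 14 and at 3.64, 5.28, 13.2 and 6.85 CPM in WT libraries 2, 4, 7 and 16. Its log2 fold change was -1.88 ± 0.44 (adjusted p = 0.215), and -0.94 with the same terms. Slc37a2, a sugar phosphate exchanger gene, was at 2.05, 4.12, 3.25 and 1.90 CPM in Dp16 libraries 3, 5, 12 and 14. It was at 2.59, 6.43, 13.7 and 8.74 CPM in WT libraries 2, 4, 7 and 16, so WT 2 lay within the Dp16 range. Its log2 fold change was -1.52 ± 0.38 (adjusted p = 0.298), and -0.91 with these terms. It was called without WT 2, the overlapping library (adjusted p = 0.00462, edgeR). It also passed with DESeq2 (0.00513) and with no filter on low counts (1.1e-12, edgeR). H2-DMb1, of the class II peptide-loading machinery, was at 0.757 to 1.52 CPM in Dp16 and 1.66 to 3.77 CPM in WT (-1.17 ± 0.27, and -1.10 with these terms). Emp2, an epithelial membrane protein gene on chromosome 16 before the segment, was at 16.7 to 19.9 CPM in Dp16 and 23.6 to 30.9 CPM in WT (-0.54 ± 0.14, and -0.43 with these terms). What part the choroid plexus content has in these values was not tested beyond that fit, in which a, Slc5a5 and Cbs were still called.

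The pair of groups with amyloid transgenes shares no library with Dp16 and WT, though it shares the fit. Its groups were uneven in thalamus content. The thalamus score was high in 5xFAD libraries 6, 13 and 15 (1.455, 1.329 and 1.415). Among 5xFAD-Dp16 libraries it was high in library 1 alone (1.512). The median log2 fold change of thalamus markers in 5xFAD-Dp16 against 5xFAD was -0.70. What part thalamus content has in the values of this pair was not tested. Of the 14 genes outside the segment at an unadjusted p under 0.001 in Dp16 against WT, 13 (92.9%) had the same sign in 5xFAD-Dp16 against 5xFAD, where 59.4% of all genes outside the segment did. There 7 of the 14 had the same sign and an unadjusted p under 0.05, and 4 were called, namely a, Slc5a5, Cbs and Tbx1. The background was 18.8% of genes outside the segment at an unadjusted p under 0.05 and 0.117% called. The predicted gene Gm10605 was nearly the same in both pairs (log2 fold change -0.65 ± 0.15 in Dp16 against WT and -0.67 ± 0.14 in 5xFAD-Dp16 against 5xFAD) without a call in either, and Trim3 was close, at 0.24 and 0.19. Lcat, Usp35, Ptbp1 and H2-DMb1 were nearer to 0 in the second pair, at 0.17, 0.04, -0.08 and -0.40. For the difference between the pairs the unadjusted p-values were 0.0256 for Lcat, 0.0134 for Usp35 and 0.0249 for Ptbp1 (edgeR). They were 0.0477 for H2-DMb1 and 0.00566 for Gabpb2, and the adjusted p was 0.718 for each. P2rx5 and Traf3ip3, whose p lay above 0.001 in Dp16 against WT, had the opposite sign in the second pair. P2rx5 stood at 0.80 in Dp16 against WT and -0.45 in the second pair, and Traf3ip3 at 1.30 and -0.13. Their differences had unadjusted p-values of 0.000847 and 0.00406 (edgeR, adjusted p = 0.718 for each). Among the 20 uncalled genes named by smallest p, 8 of 10 higher and 9 of 10 lower ones kept their sign.

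Read from the other side, 20 genes outside the segment were called in 5xFAD-Dp16 against 5xFAD, and 18 of them had the same sign in Dp16 against WT, 12 also with an unadjusted p under 0.05 there. Besides the 3 called in both, these included Pik3r3, a regulatory subunit of phosphoinositide 3-kinase, at -0.38 ± 0.097 in Dp16 against WT and -0.50 ± 0.096 in 5xFAD-Dp16 against 5xFAD, and Plk5, a polo-like kinase gene, at -0.49 ± 0.17 and -1.12 ± 0.17 in that order. The synaptojanin gene Synj2, whose paralog Synj1 is triplicated, was at 0.20 ± 0.077 and 0.44 ± 0.077. By the test of the difference itself, 0 genes outside the segment had a duplication effect that differed with the transgenes (edgeR), and 1105 had an unadjusted p under 0.05.

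**Figure D3:**
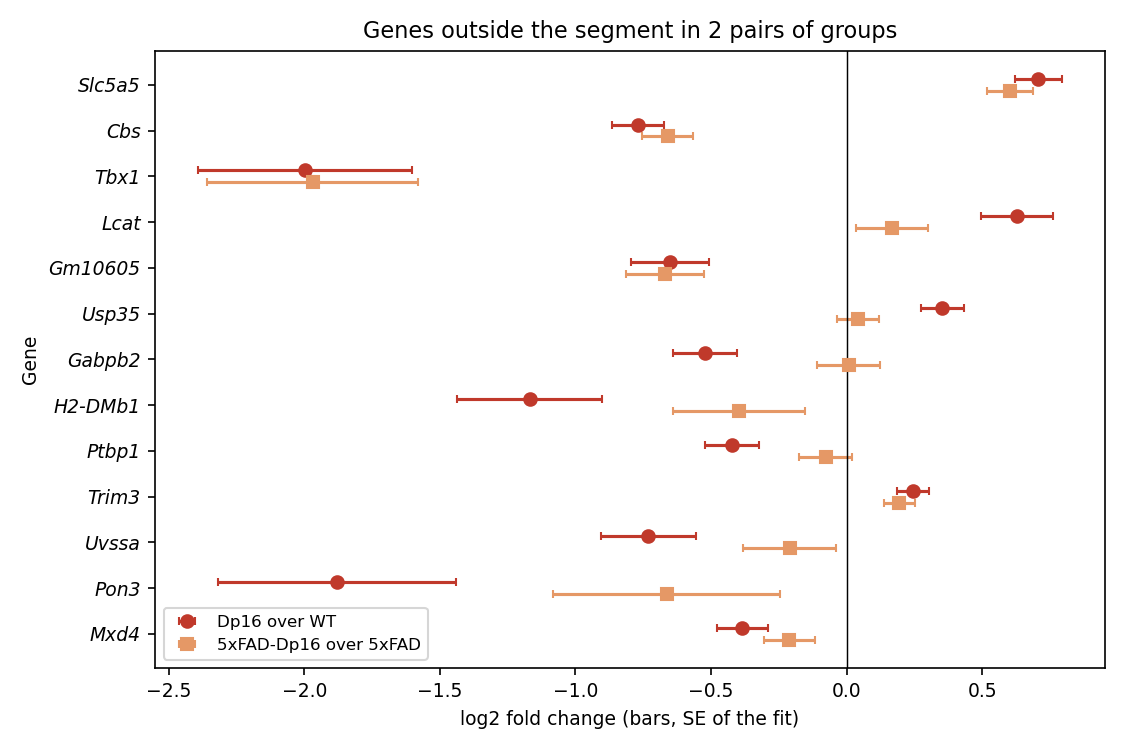
Log2 fold changes with their SE for 13 genes outside the segment with an unadjusted p under 0.001 in Dp16 against WT (circles), beside the same genes in 5xFAD-Dp16 against 5xFAD (squares); a is left out because of its near-zero WT counts. Slc5a5, Cbs, Tbx1 and Gm10605 hold nearly the same place in both pairs, while Lcat, Usp35 and Gabpb2 lie near 0 in the second.

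In the triplicated segment the dosage effect was even from library to library. The median segment gene stood at 0.559, 0.554, 0.547 and 0.544 (log2 ratio to the WT mean) in Dp16 libraries 3, 5, 12 and 14, and at -0.043, 0.038, 0.034 and -0.019 in WT libraries 2, 4, 7 and 16, thalamus-rich libraries included. Of the 105 genes 92 were positive, and their median was 1.48-fold (0.56 on the log2 scale). It was 0.55 in females and 0.56 in males, and 0.51 in the amyloid background. Whether a gene was called followed its level. Of 70 well expressed genes by the same limit, 36 were called and 55 had libraries that did not overlap, while of 22 averaging between 0 and 3 log2 CPM and of 13 below 0 none was called, with medians of 0.53 and 0.27.

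By role, the interferon and interleukin 10 receptor subunits had 2 of 4 called. Ifngr2, the highest of the 4 by log2 fold change, was at 114, 120, 117 and 97.4 CPM in Dp16 libraries. It was at 63.9, 61.1, 69.2 and 66.1 CPM in WT libraries, and the 2 sets lay far apart. The interleukin 10 receptor subunit Il10rb was the lowest of the 4, at 0.21 ± 0.17, with overlapping libraries and no call. Of genes listed under protein quality and ubiquitin, 7 of 10 were called, among them the chaperonin subunit Cct8 and Hspa13, an Hsp70 family member. That list was broad and also held Cfap298, which was called, and Urb1, neither of them known for these roles. Of metabolic and mitochondrial genes, 6 of 11 were called, all 11 between 0.24 and 0.67. Of genes listed under endocytosis and trafficking, 4 of 7 were called (median 0.64), namely Itsn1, Synj1, Vps26c and Cryzl1. This list was broad as well, since Cryzl1, Donson and B3galt5 are not known for these roles. Among 17 transcription and chromatin regulators the median was only 0.36 and 5 were called. Olig2, of the oligodendrocyte lineage, was at 42.9, 63.5, 46.7 and 48.1 CPM in Dp16 libraries and 38.9, 43.6, 42.2 and 37.3 CPM in WT libraries, so that Dp16 3 lay within the WT range (0.30 ± 0.11). The kainate receptor gene Grik1 (0.85 ± 0.16), C2cd2 (0.88 ± 0.13) and Rwdd2b, an RWD domain gene (0.93 ± 0.12), rose most among those called. These shares are read against 34.3% for the whole segment.

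The 2 well expressed segment genes that went against the rest were Kcne2, a potassium channel subunit gene, and Clic6, an intracellular chloride channel gene, both known from choroid plexus epithelium. Clic6 was at 5.38, 30.5, 2.18 and 6.10 CPM in Dp16 libraries 3, 5, 12 and 14, and at 11.6, 45.7, 166 and 53.8 CPM in WT libraries 2, 4, 7 and 16. Kcne2 was at 0.904, 10.2, 0.0890 and 1.02 CPM in Dp16 libraries and 2.53, 13.4, 44.1 and 13.8 CPM in WT libraries. Both followed the choroid plexus sum from library to library, highest in Dp16 5 and WT 7, and both log2 fold changes, -2.72 ± 1.3 for Clic6 and -2.72 ± 1.7 for Kcne2, had wide errors and were not called.

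At the edges of the segment the values were mixed from gene to gene, in part at low levels. Before it, Robo1 and Robo2, axon guidance receptors, stood at 0.07 ± 0.12 and 0.05 ± 0.11 and the adhesion gene Cadm2 at -0.12 ± 0.11. The last gene before the start, the predicted gene Gm49678, was at 1.27, 1.12, 1.02 and 1.19 CPM in Dp16 libraries and 0.740, 0.864, 0.471 and 1.01 CPM in WT libraries, apart by little and at a low level (0.58 ± 0.49). Inside the start, Hspa13 was at 0.63 ± 0.081 (called), Nrip1, a nuclear receptor corepressor, at 0.60 ± 0.15 and the RNA-binding protein gene Rbm11 at 0.62 ± 0.16, the last with overlapping libraries. Samsn1, an adaptor of lymphocytes, and the pseudogene Gm9843 stood at -0.11 ± 0.26 and -0.05 ± 0.15 among them. Inside the end, C2cd2 was at 0.88 ± 0.13 and the zinc finger gene Zbtb21 at 0.55 ± 0.074, both called. The zinc finger gene Prdm15 (0.29 ± 0.11), the kinase gene Ripk4 (0.76 ± 0.51) and the interferon-induced gene Mx2 (1.23 ± 0.60) were not. Only 2 genes were tested beyond the end. A630089N07Rik was at 1.97, 1.66, 1.83 and 2.20 CPM in Dp16 libraries and 1.11, 1.25, 1.18 and 1.14 CPM in WT libraries, without overlap (0.72 ± 0.29, unadjusted p = 0.0254, not called), and B230307C23Rik stood at 0.13 ± 0.29. The 409 genes of chromosome 16 before the segment had a median of 0.01 and 0 calls.

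**Figure D4:**
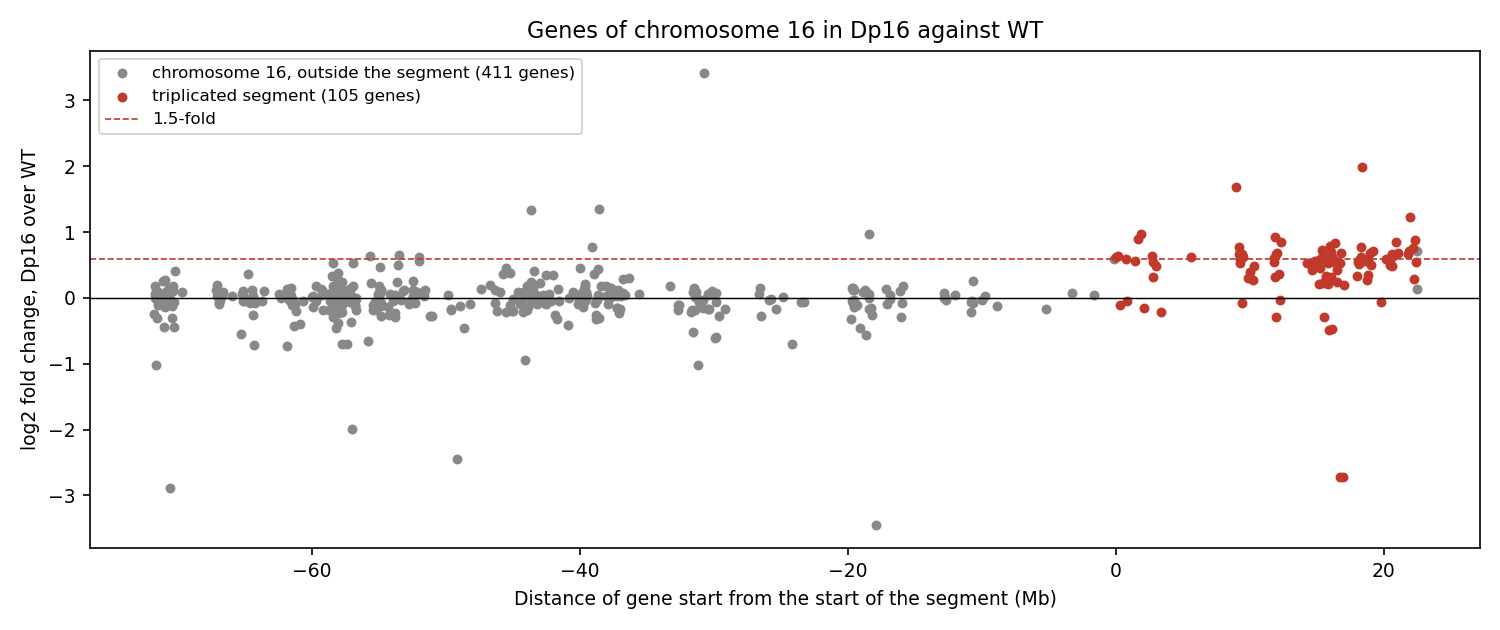
Log2 fold change, Dp16 over WT, of the 516 tested genes of chromosome 16 against the distance of each from the start of the segment (Mb). Genes before the segment scatter around 0, and most of those of the segment lie near the dashed line at 1.5-fold. Of the segment genes 13 are negative, Kcne2 and Clic6 lowest at -2.72.

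Pathways and cell types outside the segment were described with 40 gene lists. Between them they hold 764 tested genes outside the segment, of which 3 (0.393%, against 0.0176% of all genes outside the segment) were called, the same a, Slc5a5 and Cbs. Several lists were built around these 3 genes, so that this share was set by the choice of lists. Libraries did not overlap for 35 of the 764 (4.58%, against 4.15% of all genes outside the segment), and 55 (7.20%) had an unadjusted p under 0.05, against 5.34%. No gene was called in 36 lists, and the median lay within 0.2 of 0 (log2) in 34.

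The pathways of the 3 called genes held no other call. Of 31 tested genes of sulfur amino acid and one-carbon metabolism, Cbs alone was called, 12 were positive and the median was -0.03. Cth, the next enzyme after Cbs, was at 0.06 ± 0.25, Ahcy, which makes homocysteine, at -0.06 ± 0.093, and Bhmt, which remethylates it, at -2.79 ± 1.1 from under 1.5 CPM in every library. Of 10 tested melanocortin genes a alone was called. The receptor gene Mc4r stood at 0.09 and Atrn, a coreceptor of the agouti protein, at 0.08. Of 15 genes of the Slc5 family and thyroid hormone handling Slc5a5 alone was called, with the deiodinase gene Dio2 at 0.22 and the thyroid hormone receptor genes Thra and Thrb at -0.0018 and 0.03. Among 41 tested orthologs of chromosome 21 genes on mouse chromosomes 10 and 17, 23 were positive with a median of 0.03, and Cbs alone was called.

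Partners of triplicated proteins, encoded elsewhere, had a median near 0. Of 25 partner subunits and pathway enzymes 0 were called, 11 were positive and the median was -0.0012. Cct8 was at 239, 247, 250 and 246 CPM in Dp16 libraries and 159, 158, 146 and 153 CPM in WT libraries, a rise of 0.67 ± 0.067, whereas the 7 other subunits of the same chaperonin ring, Tcp1 and Cct2 to Cct7 (Cct6a), lay between -0.03 and 0.08. The purine enzymes Pfas, Ppat, Paics, Atic and Adsl, which work in the path of the triplicated Gart, lay between -0.12 and 0.05. Signalling partners of the interferon and interleukin 10 receptors had a median of 0.02 over 16 genes. The interferon response, downstream of these receptors, had 37 of 50 genes positive and a median of 0.14, with 0 called, 1 not overlapping higher and 2 lower. Ifit1 and Rtp4 stood at 0.60 and 0.63, and Nmi and Zbp1 at -0.44 and -1.50. Its score was highest in Dp16 12 (0.390), without which the median was 0.03. Among genes of App processing outside the segment, 18 with a median of 0.01, the beta-secretase gene Bace1 stood at 0.14 ± 0.082. Ide, insulin-degrading enzyme, was at 45.4, 41.9, 44.7 and 44.4 CPM in Dp16 libraries and 46.8, 70.2, 74.4 and 86.5 CPM in WT libraries, apart only narrowly because of WT 2 (-0.66 ± 0.26, adjusted p = 0.763).

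Cholesterol biosynthesis genes were mostly positive. Of 24 genes 22 were positive, the median was 0.16, and 4 had Dp16 libraries wholly above the WT libraries (16.7%, against 2.07% of all genes outside the segment), with 0 called. Fdft1, squalene synthase, was at 120, 109, 109 and 101 CPM in Dp16 libraries and 89.0, 85.5, 84.3 and 96.1 CPM in WT libraries (0.30 ± 0.092, adjusted p = 0.566). Hmgcs1, which makes HMG-CoA, was at 268, 245, 268 and 229 CPM in Dp16 libraries and 215, 197, 194 and 227 CPM in WT libraries (0.28 ± 0.096, adjusted p = 0.705). The lowest Dp16 library was above the highest WT library in both, by little. Heat shock genes had 17 of 19 positive (median 0.09) and synaptic proteins 28 of 32 (median 0.09), each with 0 called. The library scores of both lists overlapped widely between the groups. Heat shock scores ran from -0.01 to 0.16 in Dp16 and from -0.23 to 0.16 in WT. Synaptic protein scores ran from -0.20 to 0.19 in Dp16 and from -0.20 to 0.15 in WT. Calcineurin and NFAT (0.04), GABA receptors (0.08), clustered protocadherins (0.04), nuclear oxidative phosphorylation (0.01), mitochondrially encoded transcripts (0.0012), antioxidant and Nrf2 targets (-0.02), the unfolded protein response (-0.05), immediate early genes (-0.06), p53 targets (-0.10) and proliferation genes (-0.03) also held 0 called genes, their medians given in brackets.

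Among cell types, dentate granule (median -0.10), pyramidal (0.06), inhibitory neuron (0.14), astrocyte (-0.02), mature oligodendrocyte (-0.01), oligodendrocyte precursor (-0.08), endothelial (-0.12), mural (0.06) and ependymal (-0.02) markers held 0 called genes. Homeostatic microglia markers had 11 of 15 negative with a median of -0.09, which was 0.01 without WT 16, P2ry12 being at 25.4 to 32.5 CPM in Dp16 and 29.4 to 40.1 CPM in WT, which overlap. Plaque-associated microglia genes had a median of 0.12 and 0 called. Reactive astrocyte genes had 10 of 13 positive and a median of 0.21, which was 0.09 without Dp16 12. Among them Lcn2, a siderophore-binding protein, was at 1.52, 0.428, 1.25 and 1.40 CPM in Dp16 libraries and 0.123, 0.384, 0.282 and 0.0420 CPM in WT libraries, without overlap at a low level (2.44 ± 0.76, adjusted p = 0.612). Newborn neuron genes had 7 of 9 negative and a median of -0.09, with Dcx and Sox11 both at -0.26. Dp16 libraries lay wholly above the WT libraries for 1 of the 9 and wholly below for 1, with 0 called. Over all genes outside the segment these shares were 2.07% and 2.08%. Blood cell markers (5 tested, median 0.27) and lymphocyte and neutrophil markers (6 tested, median 0.77, all but Igkc and Ighm under 1 CPM on average) held 0 called genes.

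The choroid plexus list moved most, with 15 of 15 genes negative and a median of -3.41. Its most abundant member Ttr, the thyroxine carrier transthyretin, was at 50.6, 849, 15.7 and 55.5 CPM in Dp16 libraries 3, 5, 12 and 14, and at 396, 2686, 7432 and 2835 CPM in WT libraries 2, 4, 7 and 16. Dp16 5 lay above WT 2, so the groups overlapped, and the log2 fold change of -3.97 ± 2.0 was not called. None of the 15 was called, and 9 had an unadjusted p under 0.05. The median was -2.44 without WT 7 and -4.19 without Dp16 5. Meningeal fibroblast markers had 12 of 12 negative with a median of -0.57, and their summed level was 123 to 150 CPM in Dp16 and 120 to 357 CPM in WT, WT 7 again the highest. Without WT 7 that median was -0.25. Igf2, a growth factor of choroid plexus and meninges, was at 6.74 to 7.79 CPM in Dp16 and 6.72 to 48.3 CPM in WT. The medians of thalamus and striatum markers were 0.26 and -0.08, with 0 called. That of thalamus markers ran from -1.01 (without Dp16 14) to 1.11 (without WT 4) over the alternatives and turned its sign in 5 of 19. Ppp1r1b, of the striatum list, was at 54.6, 61.5, 47.6 and 49.3 CPM in Dp16 libraries and 67.7, 71.5, 126 and 86.3 CPM in WT libraries, without overlap and highest in WT 7 (-0.72 ± 0.21, adjusted p = 0.535).

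**Figure D5:**
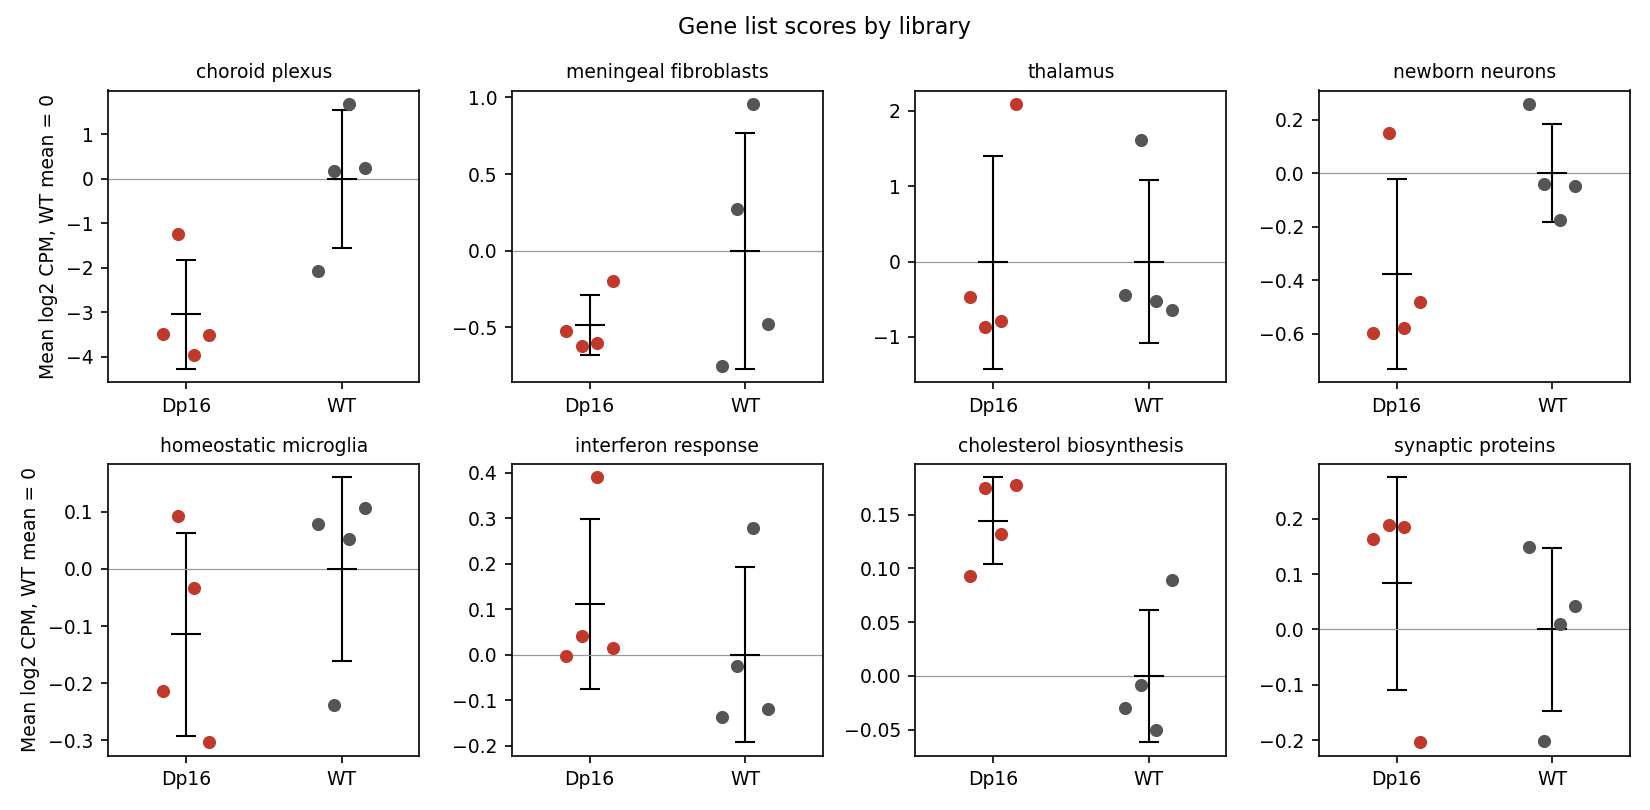
Score of 8 gene lists in each library, the mean log2 CPM of the list's genes set to 0 at the WT mean, with the mean and SD of the 4 Dp16 and the 4 WT libraries. Choroid plexus scores are low in 3 Dp16 libraries, and thalamus scores are high in Dp16 14 and WT 4. Cholesterol biosynthesis scores lie above the WT range in all 4 Dp16 libraries, but only just (0.0926 in Dp16 3 against 0.0890 in WT 16).

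The effect of the duplication was also set against sex, with 2 libraries per sex and group. By the test of the difference between female and male effects 0 of 17132 genes were called (edgeR), and 222 had an unadjusted p under 0.05 (1.30%). With DESeq2 0 were called and 177 had an unadjusted p under 0.05. The median standard error of this difference was 0.31 (log2), so only large differences could be seen. Slc5a5 was at 0.71 in both females and males, and Cbs at -0.89 in females and -0.65 in males (unadjusted p = 0.26).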

How the data were processed

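TRIzol extracts were made into stranded poly(A) libraries (Tecan/Nugen Universal Plus kit) and read as pairs of 150 bases on an Illumina NovaSeq, per the labels' protocols. The authors deposited counts per gene, and RPKM values from the same libraries. The build GRCm38 and the tools HTSeq 0.6.1, HISAT2 2.1.0 and SAMtools 1.5, beside FastQC 0.11.5 and bcl2fastq, are given in the submitters' processing notes without their roles. The strand setting and the treatment of reads with several matches are not given in the sources used here.

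Counts were tested with edgeR 4.0.16 in R 4.3.3: filterByExpr with a minimum count of 10, TMM scaling (factors 0.9445 to 1.13 over the series), and 1 quasi-likelihood fit over all 16 libraries with group and sex (11 residual degrees of freedom), Benjamini-Hochberg adjusted over 17132 genes. The fit was checked on simulated counts. SE is the size of the log2 fold change over the square root of F. Intervals from counts cover counting error only. Positions were matched by gene ID for 55144 of 55385 genes. The segment was taken as chromosome 16, 75540514 to 97962622. Promoters came from RefSeq. DESeq2 1.42.0 and limma 3.58.1, on log2(RPKM + 0.1) and log2(RPKM + 1), were alternatives. The genes named outside the segment are those called, then the 10 higher and 10 lower of smallest p that averaged at least 0 log2 CPM and have no predicted-gene symbol. Members and lists were chosen with earlier results of these data known.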

Additional observations from a re-analysis of the deposited data

Results flagged for a closer look

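In 8 of 56 groups of 4 libraries examined, 1 library lay far from the other 3 (by Dixon's 95% critical value for the gap as a share of the range). Chance does this in about 1 in 20 groups. Dp16 14 was apart in 3: its thalamus score was 2.095 (log2 above the WT mean), its Cbs level, at 21.3 CPM, was the highest of the Dp16 libraries, and so was its Trim3 level, at 124 CPM. WT 4 had a thalamus score of 1.62. The WT level of agouti came from 1 count in WT 4 alone, at 0.0480 CPM; with counts of 0 in the other libraries any single count stands apart in this way, so it is no sign of a differing library. Ucma was highest in WT 2 among the WT libraries, at 1.97 CPM, and Ptbp1 in WT 7, at 43.1 CPM. The interferon response score was highest in Dp16 12, at 0.390.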

How the results depend on the processing

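No paired analysis was possible because the numbers in the labels differ for every library and match none across groups. Of the 19 alternatives, all called a, Slc5a5 and Cbs, with Slc5a5 between 0.62 and 0.77 and Cbs between -0.86 and -0.63 (log2 fold change). The count of genes called outside the segment was 3 to 6 when 1 library was left out (6 without WT 2, 5 without Dp16 14), 7 with the 8 Dp16 and WT libraries alone, and 5 with limma on log2(RPKM + 1). It was 25 with DESeq2 (12 higher, 13 lower), 25 without the series' 6 libraries of high thalamus score (13 higher, 12 lower) and 306 with no filter on low counts (29 higher, 277 lower). Segment genes called numbered 24 to 54, and 25 to 32 with 1 library left out, 25 of them without WT 16. The segment median was 0.52 with no filter, 0.51 on log2(RPKM + 0.1) and 0.39 on log2(RPKM + 1), both with limma. None of the 23 called or uncalled genes named by rank outside the segment turned its sign. With the thalamus and choroid plexus scores as terms Pon3 was at -0.94 and Slc37a2 at -0.91. In that fit the choroid plexus median was 0.01, but the score is the mean of the same genes. That value was thus set by construction and says nothing about those genes. The causes of the other differences were not tested. In the segment no gene under a mean of 3 log2 CPM was called, while a, at a mean of 0.086, was called outside it. The median SE of segment genes was 0.57 below 0 log2 CPM, 0.29 from 0 to 3 and 0.11 at 3 or more. What part depth has in this was not tested.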
